A study of Homo sapiens with 12 samples.

Results

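The 10 genes described here encode secreted inflammatory signals of endothelial cells. They are the CXC chemokines CXCL1, CXCL2, CXCL3, CXCL6 and IL8 (the older symbol of CXCL8), the CC chemokines CCL2 and CCL20, the CX3C chemokine CX3CL1, and the cytokines IL6 and CSF2. They were chosen by name, with earlier results of these data known. The gene lists further below were chosen likewise, so counts set beside shares of all genes are descriptions, not independent support. Each of the 10 genes had 1 of the 23398 gene entries of the deposited count table. All 10 passed the filter on low counts and were among the 14324 genes tested. The cells were endothelial cells of human brain microvessels, bought from a commercial supplier, and their RNA was sequenced. All of them received an siRNA, for 48 hours: either siGlut1, which targets SLC2A1, the gene of the glucose transporter Glut1, or a non-silencing siRNA. They were kept in high or control glucose. The groups were siGlut1 in high glucose (3 libraries), non-silencing siRNA in high glucose (2 libraries), siGlut1 in control glucose (3 libraries) and non-silencing siRNA in control glucose (3 libraries). The labels give neither the glucose concentrations nor separate cultures for the replicates, so a p-value below reflects the scatter of these libraries, part or all of which may be technical.

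Chemokines guide leukocytes to the vessel wall, and endothelial cells hold many of them on their luminal surface. CXCL1, CXCL2, CXCL3, CXCL6 and IL8 attract neutrophils through the receptors CXCR1 and CXCR2, CCL2 attracts monocytes through CCR2, CCL20 attracts lymphocytes and dendritic cells through CCR6, and CX3CL1 is tethered to the membrane and binds CX3CR1. IL6 signals in the acute phase, and CSF2 (GM-CSF) drives the growth and activation of myeloid cells. Many of these genes are induced when the transcription factor NF-kB is freed from its inhibitors and enters the nucleus, and their transcripts are short-lived.

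The neutrophil chemokines form a cluster on chromosome 4. In the table's hg19 coordinates, IL8 lay at chr4:74606223-74609433, CXCL6 at chr4:74702273-74704477, CXCL1 at chr4:74735109-74737019, CXCL3 at chr4:74902312-74904490 and CXCL2 at chr4:74962754-74964997, a span of 358775 bases with 10 entries in all. The other entries in the span were PF4V1, PF4, PPBP, PPBPL2 and CXCL5, and of these only CXCL5 had enough counts to be tested. The remaining genes lay at chr17:32582296-32584220 (CCL2), chr2:228678558-228682280 (CCL20), chr16:57406414-57418956 (CX3CL1), chr7:22766766-22771621 (IL6) and chr5:131409485-131411863 (CSF2). None of the 10 overlapped another entry of the table (0 overlapping entries for each), so reads of neighbouring or antisense genes in the table were not counted at the same positions.

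The promoters of 7 of these genes are shown for the motif through which NF-kB can bind, since 6 of the 8 members with a promoter in the RefSeq table (GRCh38.p14) matched the NF-kB consensus of 10 bases and the other one shown held a near copy. The windows below are 60 bases long, read 5′ to 3′ on the strand of the gene, and the capitals mark the match to the consensus on either strand (in IL8, the 9 bases GGAATTTCC).
CXCL1: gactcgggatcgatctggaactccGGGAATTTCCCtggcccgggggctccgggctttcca
CXCL2: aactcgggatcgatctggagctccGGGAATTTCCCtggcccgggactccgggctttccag
CXCL3: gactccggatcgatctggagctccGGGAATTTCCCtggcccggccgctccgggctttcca
CXCL6: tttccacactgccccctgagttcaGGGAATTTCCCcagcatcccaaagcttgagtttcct
IL8: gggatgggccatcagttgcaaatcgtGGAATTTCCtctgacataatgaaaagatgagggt
IL6: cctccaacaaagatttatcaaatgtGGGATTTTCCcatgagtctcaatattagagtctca
CCL20: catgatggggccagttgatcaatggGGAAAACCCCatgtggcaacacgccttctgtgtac

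In GRCh38.p14, the windows lie at chr4:73869290-73869349 on the plus strand (CXCL1), chr4:74099238-74099297 on the minus strand (CXCL2), chr4:74038733-74038792 on the minus strand (CXCL3), chr4:73836564-73836623 on the plus strand (CXCL6), chr4:73740452-73740511 on the plus strand (IL8), chr7:22727102-22727161 on the plus strand (IL6) and chr2:227813738-227813797 on the plus strand (CCL20). Over the 250 bases upstream of the start site, 9.96% of the 35116 promoters in the table held a match to the NF-kB consensus on either strand. GGAATTTCC stood in 0.413% of the promoters and in 5 of the 8 members (CXCL1, CXCL2, CXCL3, CXCL6 and IL8), in 4 of them inside the consensus match. TGACTCA, the motif of AP-1, was in 4.2% of promoters and in IL8 only among the 8, and TATAAA was in 10.7% of promoters and in CCL20 and IL8. The promoters of CXCL1, CXCL2 and CXCL3 resembled each other over these 250 bases, with 74.4% (CXCL1 and CXCL2), 84% (CXCL1 and CXCL3) and 78% (CXCL2 and CXCL3) identical bases, against 52% to 53.6% between each of them and CXCL6. The motifs were picked after the sequences had been read, and a match is a description of letters, not a measured binding site. The promoters of CSF2, CCL2 and CX3CL1 are not shown.

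The 11 libraries held 40135082 to 90536476 counts (median 49686182). Every count in them was even (0 odd counts), so 2 counts are treated below as 1 read pair. A further column, labelled as replicate 2 of non-silencing siRNA in high glucose, equalled the mean of replicates 1 and 3 for all 10 genes and was left out. The target of siGlut1 was lower in both media: SLC2A1 averaged 7.96 ± 1.49 CPM (counts per 1000000 counts of a library) with siGlut1 and 23.9 ± 1.74 with non-silencing siRNA in control glucose (SD, n = 3 each; log2 fold change -1.58, adjusted p = 0.000884), and 6.89 ± 0.443 (n = 3) against 20.9 ± 0.395 (n = 2) in high glucose (-1.61, adjusted p = 0.000888). Each adjusted p is the result of edgeR's quasi-likelihood test after Benjamini-Hochberg adjustment over all 14324 tested genes, and a gene passed the threshold, or was called, when it was under 0.05. Values after ± are standard deviations (SD) for levels and standard errors (SE) for log2 fold changes. Each SE was back-calculated from the log2 fold change and the F value of its test. Intervals of log2 fold changes rest on these SEs. The summed level of 12 endothelial markers was 6127 to 9245 CPM in every library. Of 12 leukocyte and microglia markers, CD3E, MS4A1 and P2RY12 were at 0 in all libraries and PTPRC was at most 0.119 CPM, while CD68 (37.9 to 73.1 CPM) carried the sum of 39.5 to 73.8 CPM. The 5 astrocyte markers summed to at most 0.153 CPM. Of 10 pericyte and smooth muscle markers, RGS5 and ANPEP reached at least 1325 CPM in each library, while PDGFRB was at most 0.363 CPM and CSPG4 at most 0.202 CPM. KRT18, KRT19 and KRT8 carried the 276 to 389 CPM of 6 epithelial markers, with CDH1 and KRT5 at 0. The 6 fibroblast markers, none of them at 0 throughout and led by COL1A2 (4.32 to 37.1 CPM), summed to 19.4 to 41.3 CPM with siGlut1 and 12.3 to 21.4 CPM with non-silencing siRNA in high glucose, and to 14.1 to 36.5 CPM with siGlut1 and 7.45 to 24.7 CPM with non-silencing siRNA in control glucose. Their part in the results below was not tested. In bulk RNA, fewer cells that express a gene and less RNA per cell cannot be told apart. In control glucose replicate 3 of each siRNA differed from the other two, also in these genes, and the changes in control glucose and averaged over both media are given with and without these libraries.

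Per length of transcript, the 10 genes spanned a wide range. The authors' RPKM (reads scaled to gene length and library depth) ranked CCL2 first in all 4 groups, with group means of 35.9 to 98.1, CXCL1 second with 33.8 to 52.7 and IL8 next with 15.1 to 29.3. IL6 (6.37 to 8.45), CXCL2 (3.1 to 9.35) and CXCL6 (2.81 to 5.54) followed and exchanged places between groups, and CXCL3 came next with 0.935 to 2.76. CCL20 (0.0785 to 0.865), CSF2 (0.0138 to 0.617) and CX3CL1 (0.039 to 0.137) were below 1 RPKM in each group. These last genes rest on few reads, and the counts behind them are given with each value.

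**Figure D1:**
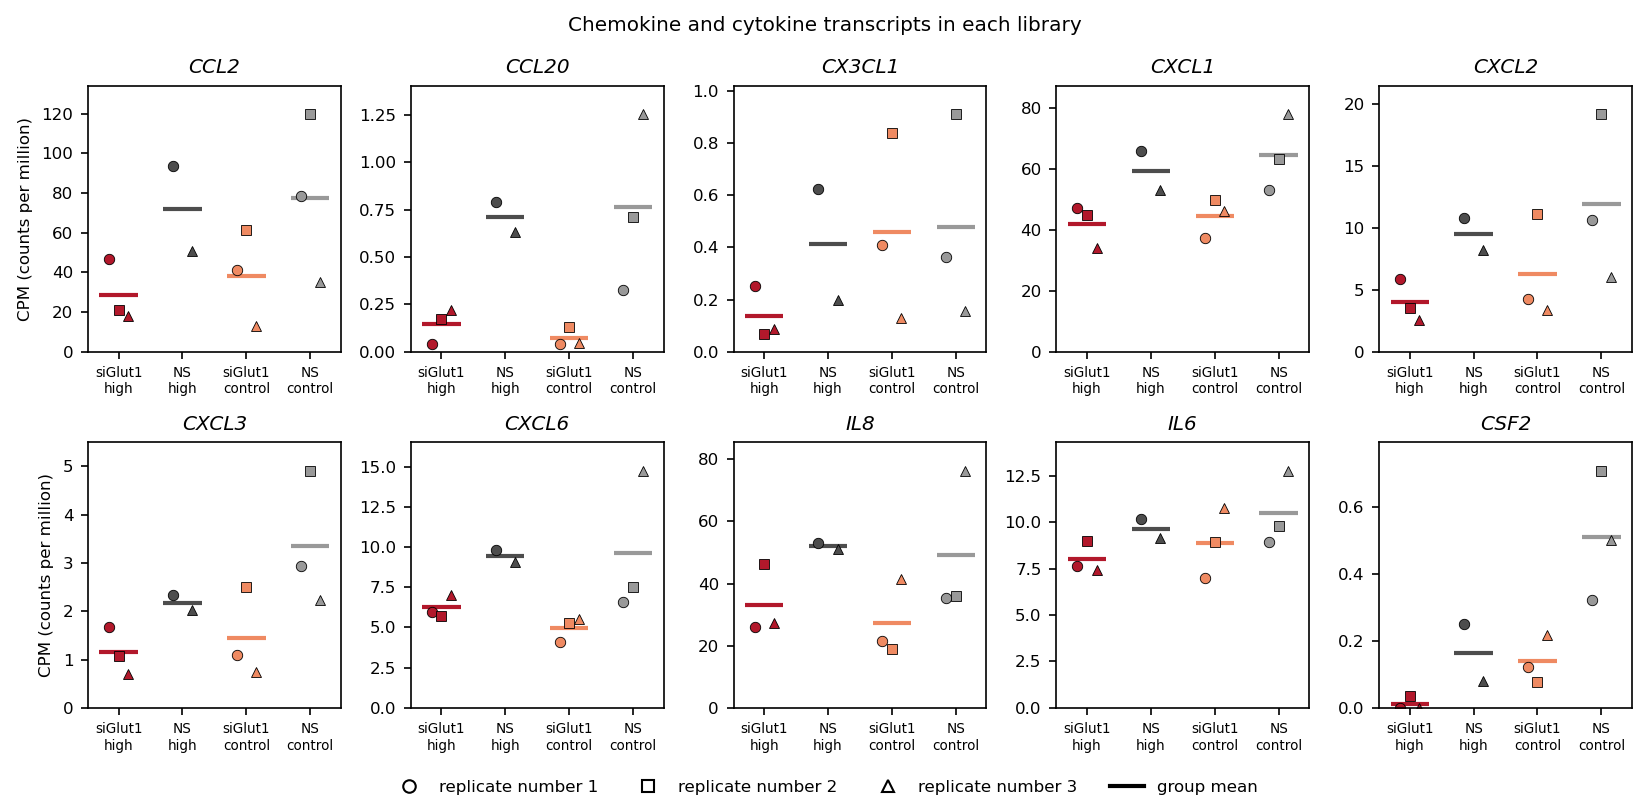
Level of each gene in each of the 11 libraries, in CPM on a linear axis from 0, with siGlut1 left of non-silencing siRNA (NS) in high and in control glucose. Points are libraries with their replicate number as the symbol, and lines are group means; in high glucose 9 of the 10 genes had every siGlut1 library below both non-silencing libraries, as did 22% of all tested genes, and CX3CL1 did not.

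With siGlut1, 4 of the 10 genes (CCL20, CXCL1, CXCL6 and CSF2) fell averaged over both media, and 0 rose. Of all tested genes, 14.4% passed that threshold in either direction, 6.49% lower and 7.93% higher. CCL20 and CSF2 rest on few reads and passed the low-count filter mostly through non-silencing libraries, so their calls depend on that filter. A stricter filter dropped them and CX3CL1, and left 2 calls among the 7 other members, CXCL1 (adjusted p = 0.0159) and CXCL6 (0.0193). The share of all tested genes called with that filter is not given here. The averaged log2 fold change was below 0 in 10 of the 10, against 50.9% of all tested genes. Without both control-glucose replicates numbered 3, 8 of the 10 fell, all but IL6 and CX3CL1, as did 8.9% of all tested genes in that fit, and without non-silencing control-glucose replicate 3 alone 7 fell, as did 8.23%. Without non-silencing high-glucose replicate 1 the count was 1 (CCL20), against 3.05% of all tested genes, where CXCL1 gave -0.44 (adjusted p = 0.0933), CXCL6 -0.74 (0.0779) and CSF2 -2.30 (0.111). The call of CXCL6 was also lost without non-silencing high-glucose replicate 3 (-0.81, 0.0597) and without siGlut1 high-glucose replicate 2 (-0.75, 0.0517). Of the 10 genes, 8 had an unadjusted p under 0.05, all with a negative sign, against 14.4% of all tested genes with that sign.

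In control glucose alone, 1 of the 10 genes (CCL20) passed the threshold, against 2.96% of all tested genes in either direction and 1.26% lower. With DESeq2, 3 passed there (CCL20, CXCL1 with adjusted p = 0.0287 and CXCL6 with 0.00628), against 7.78% of all genes with an adjusted p, 3.6% lower. An unadjusted p under 0.05 with a negative sign was found in 6 of the 10, against 8.43% of all tested genes, and a log2 fold change below 0 in 9 of the 10, against 51.4%. In 4 of the 10 (CCL20, CXCL1, CXCL6 and CSF2) all siGlut1 libraries lay below all non-silencing ones, as in 9.6% of all tested genes, and without both replicates numbered 3, with 2 libraries on each side, this held for 7 and for 22.7% of all tested genes. In high glucose alone 0 of the 10 passed by edgeR's quasi-likelihood test, against 4.11% of all tested genes in either direction. There 4 had an unadjusted p under 0.05 with a negative sign, against 9.5%, and all 10 had a log2 fold change below 0, against 50.1%. With DESeq2, 1 passed in high glucose (CCL20), against 9.98% of all genes with an adjusted p, 4.22% lower. The siGlut1 libraries lay below both non-silencing ones in 9 of the 10, against 22% of all tested genes. CCL20, CXCL1, CXCL6 and CSF2 (4 of the 10) were lower and apart in both media, against 6.21% of all tested genes, and of the 1375 tested genes lower and apart in control glucose 64.7% were so in high glucose too. Without both control-glucose replicates numbered 3, 3 of the 10 passed in high glucose, against 11.8% of all tested genes (5.44% lower): CCL2 (-1.35, adjusted p = 0.0497), CCL20 (-2.18, 0.0355) and CXCL6 (-0.60, 0.0256). Without non-silencing control-glucose replicate 3 alone, CCL20 (-2.19, 0.0462) and CXCL6 (-0.60, 0.0384) passed there, against 7.57% of all tested genes (3.28% lower). The median log2 fold change of the 10 was -0.93 in control glucose (-1.27 to -0.67 when each library was left out in turn), -1.11 in high glucose (-1.48 to -0.72) and -0.93 on average (-1.31 to -0.83), against -0.00668, -0.000477 and -0.00447 over all tested genes. The comparisons within each medium share no library, and the average holds both.

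In control glucose without both replicates numbered 3, CCL2 gave -0.96 (adjusted p = 0.301), CCL20 -2.46 (0.125), CX3CL1 0.02 (0.995), CXCL1 -0.42 (0.273), CXCL2 -0.94 (0.325), CXCL3 -1.10 (0.231), CXCL6 -0.59 (0.107), IL8 -0.83 (0.0945), IL6 -0.24 (0.471) and CSF2 -2.39 (0.161). Of all tested genes, 1.74% passed there. Averaged over both media without these libraries, CCL20 gave -2.32 (adjusted p = 0.00762), CXCL1 -0.47 (0.0248), CSF2 -3.06 (0.0127), IL6 -0.26 (0.108) and CX3CL1 -0.83 (0.274), and the other averages stand with each gene.

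**Figure D2:**
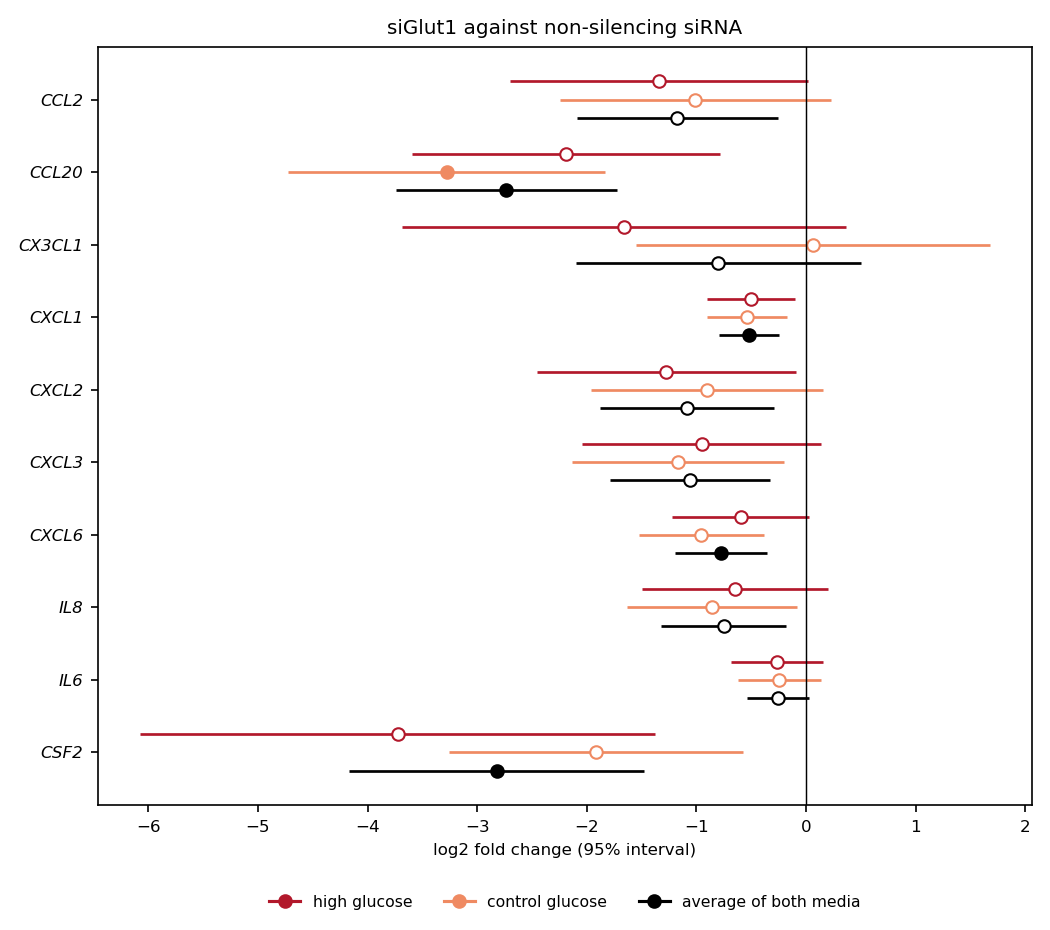
Log2 fold change of siGlut1 against non-silencing siRNA with its 95% interval for each gene, in high glucose, in control glucose and averaged over both media; filled points passed the threshold. The averaged values are all below 0, from -2.82 for CSF2 to -0.26 for IL6, and the filled averages are CCL20, CXCL1, CXCL6 and CSF2.

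Among the neutrophil chemokines, CXCL1 measured 37.4, 49.8 and 46.3 CPM in the siGlut1 libraries of control glucose, against 53.0, 63.2 and 77.9 CPM in the non-silencing ones. In high glucose it measured 47.3, 44.8 and 34.0 CPM with siGlut1, against 65.8 and 53.2 CPM with non-silencing siRNA. The groups did not overlap in either medium. The log2 fold change was -0.54 ± 0.17 SE in control glucose (68.8% of the non-silencing level; adjusted p = 0.11) and -0.50 ± 0.18 SE in high glucose (adjusted p = 0.15), neither past the threshold. Averaged over both media, CXCL1 fell by 0.52 ± 0.12 SE on the log2 scale (adjusted p = 0.0173).

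CXCL6, which also attracts neutrophils, measured 4.08, 5.3 and 5.52 CPM in the siGlut1 libraries of control glucose, against 6.57, 7.49 and 14.7 CPM in the non-silencing ones. In high glucose it measured 5.96, 5.71 and 7.04 CPM with siGlut1, against 9.84 and 9.09 CPM with non-silencing siRNA. Every siGlut1 library was below every non-silencing library of the same medium, and replicate 3 of the non-silencing control-glucose group was far above the other two. CXCL6 gave -0.96 ± 0.26 SE in control glucose (adjusted p = 0.0739) and -0.60 ± 0.28 SE in high glucose (adjusted p = 0.258). Its average over both media fell by 0.78 ± 0.19 SE (adjusted p = 0.0206), and it fell by 0.59 (adjusted p = 0.00534) without both control-glucose replicates numbered 3.

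IL8, the chemokine most studied as a neutrophil attractant, measured 21.6, 19.0 and 41.5 CPM in the siGlut1 libraries of control glucose, against 35.3, 36.1 and 76.3 CPM in the non-silencing ones. Here replicate 3 was the highest of both groups, and the groups overlapped. In high glucose IL8 measured 26.0, 46.1 and 27.4 CPM with siGlut1, against 53.0 and 51.1 CPM with non-silencing siRNA, with no overlap. The log2 fold change was -0.85 ± 0.35 SE in control glucose (adjusted p = 0.235), -0.65 ± 0.39 SE in high glucose (adjusted p = 0.375) and -0.75 ± 0.26 SE on average (adjusted p = 0.0781). The average was -0.74 without both control-glucose replicates numbered 3 and passed the threshold (adjusted p = 0.00743), as it did without siGlut1 control-glucose replicate 3 alone (-0.97, adjusted p = 0.0216).

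CXCL2 and CXCL3 varied more between replicates. CXCL2 measured 4.24, 11.1 and 3.39 CPM in the siGlut1 libraries of control glucose, against 10.6, 19.1 and 5.98 CPM in the non-silencing ones, and 5.84, 3.51 and 2.57 CPM with siGlut1, against 10.8 and 8.18 CPM with non-silencing siRNA, in high glucose. CXCL3 measured 1.1, 2.5 and 0.739 CPM with siGlut1, against 2.94, 4.91 and 2.22 CPM with non-silencing siRNA, in control glucose, and 1.67, 1.07 and 0.709 CPM against 2.33 and 2.01 CPM in high glucose. For both genes the groups overlapped in control glucose, where replicate 2 was the highest and replicate 3 the lowest with either siRNA, and did not overlap in high glucose. CXCL2 gave -0.90 ± 0.48 SE in control glucose (adjusted p = 0.374), -1.27 ± 0.54 SE in high glucose (adjusted p = 0.208) and -1.09 ± 0.36 SE on average (adjusted p = 0.0679). CXCL3 gave -1.17 ± 0.44 SE in control glucose (adjusted p = 0.188), -0.95 ± 0.50 SE in high glucose (adjusted p = 0.308) and -1.06 ± 0.33 SE on average (adjusted p = 0.0544). The averages were -1.11 for CXCL2 (adjusted p = 0.0298) and -1.03 for CXCL3 (adjusted p = 0.0353), past the threshold, without both control-glucose replicates numbered 3. With each library left out in turn, the change of CXCL2 in control glucose ran from -1.64 (without siGlut1 replicate 2) to -0.39 (without non-silencing replicate 2), and that of CXCL3 from -1.86 to -0.79 with the same libraries left out. CXCL2 also passed without siGlut1 control-glucose replicate 2 (-1.46, adjusted p = 0.0152) or non-silencing control-glucose replicate 3 (-1.25, 0.0275), and CXCL3 without either of these (-1.40, 0.0123; -1.17, 0.0344) or siGlut1 high-glucose replicate 1 (-1.24, 0.0429). CXCL1, CXCL2 and CXCL3 are close relatives, and 5.73%, 9.24% and 5.26% of the 50-base windows of their transcripts also occurred in transcripts of other genes (0 of the 100-base windows), so a small part of their reads may be shared among them.

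CCL2, the monocyte attractant, had the highest RPKM of the genes and the widest spread between replicates in CPM. It measured 40.9, 61.4 and 12.7 CPM in the siGlut1 libraries of control glucose, against 78.2, 119.6 and 35.2 CPM in the non-silencing ones. In high glucose it measured 46.9, 20.9 and 17.8 CPM with siGlut1, against 93.4 and 50.5 CPM with non-silencing siRNA. The groups overlapped in control glucose, where replicate 3 was the lowest of both groups, and did not overlap in high glucose. The log2 fold change was -1.01 ± 0.56 SE in control glucose (adjusted p = 0.397), -1.34 ± 0.62 SE in high glucose (adjusted p = 0.245) and -1.17 ± 0.42 SE on average (adjusted p = 0.0845). The average of CCL2 was -1.15 without both control-glucose replicates numbered 3 and passed the threshold (adjusted p = 0.0219), as it did without non-silencing control-glucose replicate 3 alone (-1.35, adjusted p = 0.0376).

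CCL20, which attracts lymphocytes and dendritic cells, was the member called in control glucose. It measured 0.0408, 0.127 and 0.0435 CPM in the siGlut1 libraries of control glucose (1, 5 and 1 read pairs), against 0.323, 0.708 and 1.25 CPM in the non-silencing ones (8, 14 and 40 read pairs). In high glucose it measured 0.0417, 0.172 and 0.222 CPM with siGlut1 (1, 5 and 10 read pairs), against 0.792 and 0.632 CPM with non-silencing siRNA (19 and 16 read pairs). All siGlut1 libraries were below all non-silencing ones. CCL20 fell by 3.28 ± 0.66 SE on the log2 scale in control glucose, to 10.3% of the non-silencing level (adjusted p = 0.0262). By the summed reads of each group, the siGlut1 level there was 0.098 times the non-silencing one (7 and 62 read pairs, exact 95% interval 0.0378 to 0.214, counting error only). In high glucose the log2 fold change of CCL20 was -2.19 ± 0.64 SE (adjusted p = 0.0818), and the ratio of summed reads was 0.225 (16 and 35 read pairs, 0.116 to 0.417). The average over both media fell by 2.73 ± 0.46 SE (adjusted p = 0.0033). The call in control glucose was lost without siGlut1 replicate 1 (-3.02, adjusted p = 0.0927), 2 (-4.12, 0.0511) or 3 (-3.05, 0.0739), without non-silencing replicate 3 (-2.68, 0.0666) and without both replicates numbered 3 (-2.46, 0.125), and the call of the average was kept without each of the 11 libraries (adjusted p of 0.00302 to 0.0183).

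CX3CL1 was close to the limit of detection. It measured 0.408, 0.841 and 0.13 CPM in the siGlut1 libraries of control glucose (10, 33 and 3 read pairs), against 0.363, 0.911 and 0.157 CPM in the non-silencing ones (9, 18 and 5 read pairs). In high glucose it measured 0.25, 0.0688 and 0.0886 CPM with siGlut1 (6, 2 and 4 read pairs), against 0.625 and 0.198 CPM with non-silencing siRNA (15 and 5 read pairs). The groups overlapped in both media. Its log2 fold change was 0.06 ± 0.74 SE in control glucose (95% interval -1.55 to 1.67; adjusted p = 0.981), -1.66 ± 0.93 SE in high glucose (adjusted p = 0.337) and -0.80 ± 0.59 SE on average (adjusted p = 0.407). The interval in control glucose holds changes of 2-fold in either direction.

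IL6, the acute-phase cytokine, had the smallest averaged change of the 10. It measured 6.97, 8.95 and 10.7 CPM in the siGlut1 libraries of control glucose, against 8.91, 9.82 and 12.8 CPM in the non-silencing ones. In high glucose it measured 7.63, 8.98 and 7.44 CPM with siGlut1, against 10.2 and 9.13 CPM with non-silencing siRNA. The groups overlapped in control glucose and were just apart in high glucose. The log2 fold change was -0.24 ± 0.17 SE in control glucose (adjusted p = 0.509), -0.27 ± 0.19 SE in high glucose (adjusted p = 0.471) and -0.26 ± 0.13 SE on average (95% interval -0.54 to 0.03; adjusted p = 0.212).

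CSF2, the myeloid growth factor, rested on the fewest reads. In control glucose it measured 0.122, 0.0765 and 0.217 CPM with siGlut1 (3, 3 and 5 read pairs), against 0.323, 0.708 and 0.501 CPM with non-silencing siRNA (8, 14 and 16 read pairs). In high glucose a single read pair was counted in the siGlut1 libraries, in replicate 2, against 6 and 2 read pairs (0.25 and 0.079 CPM) in the non-silencing ones. All siGlut1 libraries were below all non-silencing ones of the same medium. The ratio of summed reads was 0.251 in control glucose (11 and 38 read pairs, exact 95% interval 0.116 to 0.502) and 0.0615 in high glucose (1 and 8 read pairs, 0.00139 to 0.458), with counting error only. CSF2 gave -1.92 ± 0.61 SE in control glucose (adjusted p = 0.122) and -3.72 ± 1.07 SE in high glucose (adjusted p = 0.0773), and its average over both media fell by 2.82 ± 0.61 SE (adjusted p = 0.0114). The SE of 1.07 in high glucose gave an interval of -6.07 to -1.37 on the log2 scale. That is narrower than the exact interval above, which holds counting error only, so this SE understates the uncertainty. The average rests in part on this change. The fitted size in high glucose depends on the prior count of the fit, because 2 of the 3 siGlut1 libraries were at 0. This prior count is edgeR's default and not the 2 used for log2 CPM. Without siGlut1 high-glucose replicate 2, which leaves siGlut1 at 0 there, the fitted size was -6.22, and without non-silencing high-glucose replicate 1 it was -2.69. The average was -4.07 (adjusted p = 0.0134) and -2.30 (adjusted p = 0.111) in these fits.

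Between the media, no member differed past the threshold. With siGlut1, 0 of the 10 passed the threshold between high and control glucose (0.014% of all tested genes), and with non-silencing siRNA 0 of the 10 passed (0% of all tested genes) by edgeR's quasi-likelihood test. At an unadjusted p under 0.05, 2 of the 10 and 15.2% of all tested genes met it with siGlut1, and 1 of the 10 and 5.4% with non-silencing siRNA. DESeq2 called 0 of the 10 with either siRNA, against 3.57% of all genes with an adjusted p with siGlut1 and 0.23% with non-silencing siRNA. CSF2, with 1 read pair in the 3 siGlut1 high-glucose libraries and 11 in the 3 of control glucose, gave -3.42 ± 1.02 SE (adjusted p = 0.191; ratio of summed reads 0.0804, exact 95% interval 0.00187 to 0.553). Here too the interval from the SE, -5.65 to -1.19 on the log2 scale, was narrower than the exact one. With non-silencing siRNA CSF2 had 8 read pairs in 2 libraries of high glucose and 38 in 3 of control glucose, and gave -1.62 ± 0.69 SE (adjusted p = 0.914; ratio 0.329, 0.132 to 0.715). High-glucose libraries were below all control-glucose ones for CSF2 with either siRNA, and for no other member, against 11.7% of all tested genes with siGlut1 and 9.23% with non-silencing siRNA. CX3CL1 gave -1.88 ± 0.83 SE with siGlut1 (adjusted p = 0.312) and -0.16 ± 0.85 SE with non-silencing siRNA (adjusted p = 0.995).

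The width of the interval of the glucose effect differed between genes. With non-silencing siRNA, the 95% interval of the log2 fold change in high against control glucose was -0.53 to 0.28 for CXCL1 and -0.55 to 0.30 for IL6, and -0.65 to 0.60 for CXCL6. It was wider for IL8 (-0.78 to 0.93) and CCL2 (-1.48 to 1.26). CXCL6 measured 5.96, 5.71 and 7.04 CPM with siGlut1 in high glucose, against 4.08, 5.3 and 5.52 CPM with siGlut1 in control glucose, the 1 member whose high-glucose libraries were all above (10.9% of all tested genes), and gave 0.33 ± 0.26 SE (adjusted p = 0.573). Averaged over both siRNAs, 0 of the 10 passed by edgeR's quasi-likelihood test, against 0.412% of all tested genes, and the nearest was CSF2 (-2.52 ± 0.62 SE, adjusted p = 0.106). At an unadjusted p under 0.05 it was CSF2 alone, against 16.9% of all tested genes. DESeq2 called 0 of the 10 there, against 4.1% of all genes with an adjusted p. Without both control-glucose replicates numbered 3, 18.1% of all tested genes passed and 3 of the 10 with them: IL8 (0.63, adjusted p = 0.0194) and CXCL6 (0.42, adjusted p = 0.0271) rose with high glucose and CSF2 fell by 2.29 (adjusted p = 0.0471).

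**Figure D3:**
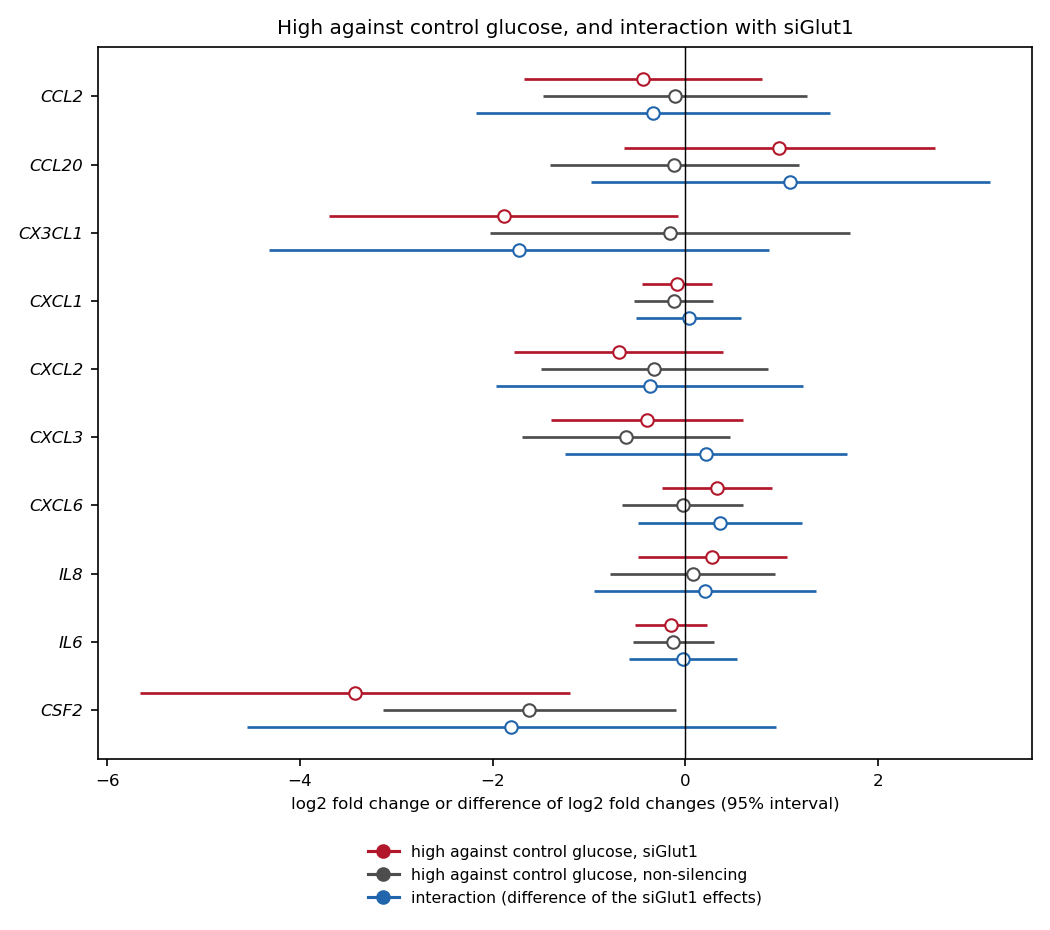
Log2 fold change of high against control glucose with siGlut1 and with non-silencing siRNA, and the interaction (the siGlut1 effect in high glucose minus that in control glucose), with 95% intervals; no point is filled because none passed the threshold. CSF2 and CX3CL1 have the widest intervals, and CXCL1 and IL6 the narrowest.

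Whether the siGlut1 effect differed between the media was tested by the interaction. It passed the threshold for 0 of the 10 genes and for 0% of all tested genes by edgeR's quasi-likelihood test. At an unadjusted p under 0.05, 0 of the 10 and 2.75% of all tested genes met it, and DESeq2 called 0. The difference of the log2 fold changes had 95% intervals of -0.51 to 0.58 for CXCL1, -0.59 to 0.54 for IL6, -0.49 to 1.21 for CXCL6 and -0.95 to 1.36 for IL8. It reached from -2.17 to 1.5 for CCL2 and from -0.98 to 3.16 for CCL20. For CX3CL1 it reached from -4.32 to 0.87 and for CSF2 from -4.55 to 0.94. CXCL2 had -1.96 to 1.22 and CXCL3 -1.25 to 1.68. Differences of more than 2-fold lie inside the interval of each gene except CXCL1 and IL6. The smaller CCL20 change in high glucose is therefore not shown to differ from that in control glucose (1.09 ± 0.94 SE, adjusted p = 0.999).

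Within groups, the genes varied in 2 patterns. CCL2, CX3CL1, CXCL2 and CXCL3 went up and down together between replicates: after the group mean was taken off, their log2 CPM correlated with r of 0.878 to 0.975 over the 11 libraries (median 0.903 of 6 pairs). CXCL1, CXCL6, IL8, IL6 and CCL20 correlated among themselves with r of 0.295 to 0.842 (median 0.596 of 10 pairs), and IL8 and IL6 reached 0.842. Between the sets r was -0.81 to 0.314 (median -0.31 of 20 pairs). The highest of these (CXCL1 and CXCL3) exceeded the 0.295 of CXCL1 and CCL20 inside the second set. CSF2 was placed in neither set, which was a choice. Its r was 0.556 with IL8, 0.52 with IL6 and 0.384 with CXCL1, against 0.317, 0.468 and 0.295 for CCL20. With CXCL6 it was 0.0958, against 0.659 for CCL20. The split was made after the values were seen, the points share their libraries and depth, and the correlations are given as a description without a test.

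In both control-glucose groups replicate 3 was the lowest for CCL2, CX3CL1, CXCL2 and CXCL3 and the highest for IL8, IL6 and CXCL6. CCL2 lay 1.32 below its group mean in siGlut1 control 3 and 0.97 below in non-silencing control 3 on the log2 scale, where IL8 lay 0.69 and 0.73 above. In replicate 2 of these groups CCL2 lay 0.95 (siGlut1) and 0.79 (non-silencing) above its group mean, and IL8 lay 0.43 and 0.35 below. In high glucose, CCL2 was highest in siGlut1 replicate 1, at 0.85 above its group mean.

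**Figure D4:**
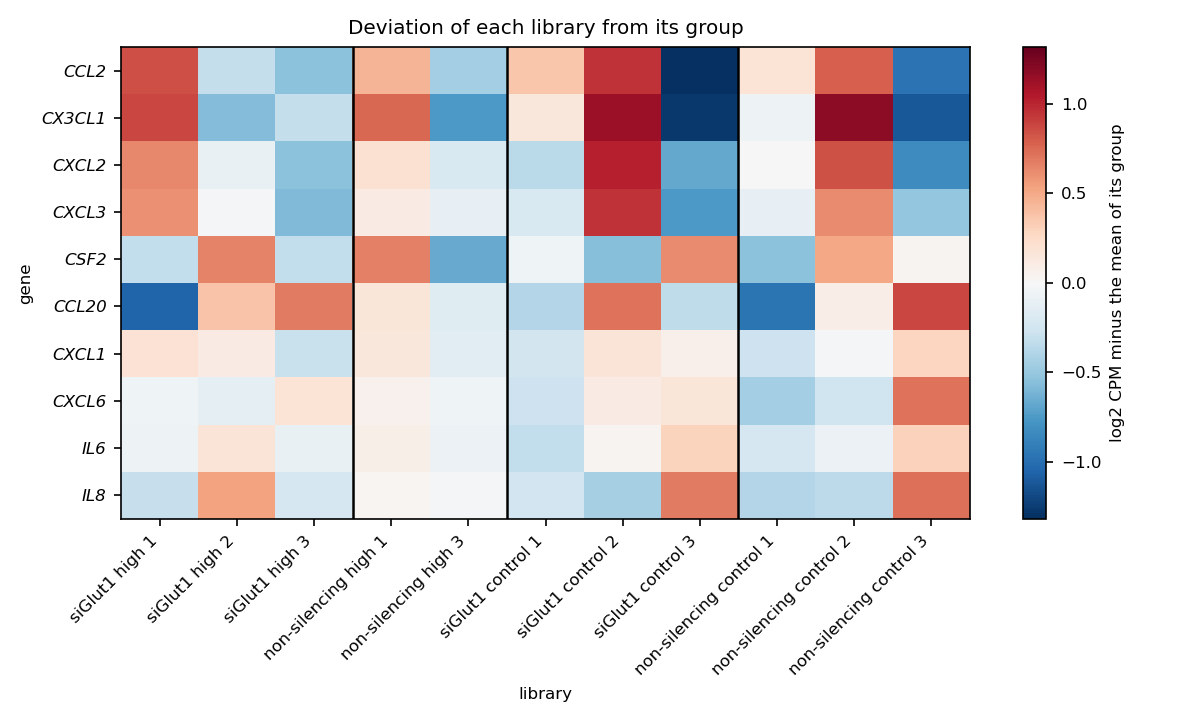
Deviation of the log2 CPM of each gene from the mean of its group in each of the 11 libraries, red above and blue below, with vertical lines between groups. Within each control-glucose group, CCL2, CX3CL1, CXCL2 and CXCL3 are lowest in replicate 3, where IL8, IL6 and CXCL6 are highest.

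Other chemokines lay on both sides of 0. Of 32 listed, 9 were tested, and averaged over both media 3 rose with siGlut1 and 0 fell, while the log2 fold change was below 0 in 4 of the 9 (median 0.64, against a median of -0.93 for the 10 genes). CCL5, which attracts T cells and monocytes, averaged 1.34 ± 0.464 CPM with siGlut1 and 0.541 ± 0.0347 with non-silencing siRNA in control glucose (SD, n = 3 each) and rose by 1.46 ± 0.26 SE averaged over both media (adjusted p = 0.00421). CXCL10 and CXCL11, ligands of CXCR3 that interferon induces, rose by 1.24 ± 0.30 SE (adjusted p = 0.0188) and 0.83 ± 0.18 SE (adjusted p = 0.0103). CXCL5, the neutrophil chemokine inside the chromosome 4 cluster, gave -0.60 ± 0.19 SE (adjusted p = 0.0592; named after its value was seen). Of 26 other cytokines 23 were tested, and averaged over both media 0 rose and 3 fell (5 without both control-glucose replicates numbered 3): TSLP, an epithelial cytokine of the IL7 family, by 1.46 ± 0.33 SE (adjusted p = 0.0128), LTB, the membrane anchor of lymphotoxin, by 1.06 ± 0.21 SE (adjusted p = 0.00665) and IL15, which supports NK cells, by 0.37 ± 0.11 SE (adjusted p = 0.0394). In the single media, 1 of these 32 tested genes passed (CCL5 in high glucose, 1.61 ± 0.40 SE, adjusted p = 0.0467), and without both control-glucose replicates numbered 3 a further 3 cytokines were lower in high glucose. Of all tested genes, 2.96% passed in control glucose and 4.11% in high glucose, and 5.44% were lower in high glucose without these replicates.

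The NF-kB machinery itself had more genes lower than higher with siGlut1. All 29 listed subunits, kinases and inhibitors were tested, and averaged over both media 12 fell and 1 rose (14 and 2 without both control-glucose replicates numbered 3), with a median of -0.18. Of all tested genes 6.49% fell and 7.93% rose (8.9% and 8.93% without these replicates). BIRC3, a ubiquitin ligase that NF-kB induces, averaged 7.34 ± 1.94 CPM with siGlut1 and 12.3 ± 3.09 with non-silencing siRNA in control glucose (SD, n = 3 each), and 5.12 ± 1.24 (n = 3) against 11.4 ± 0.893 (n = 2) in high glucose. It fell by 0.95 ± 0.17 SE on average (adjusted p = 0.00409). NFKBIZ, a nuclear cofactor of NF-kB that IL6 expression needs in mouse cells, fell by 0.92 ± 0.16 SE (adjusted p = 0.00367). TRAF1, an adaptor of TNF receptors, fell by 0.83 ± 0.19 SE (adjusted p = 0.0133) and RELB, a subunit of the non-canonical pathway, by 0.70 ± 0.15 SE (adjusted p = 0.00914). In control glucose 3 fell (CHUK, NFKB2 and TNIP1) and 1 rose (TRAF3), and in high glucose 5 fell (these 3, BIRC3 and NFKBIZ) and 1 rose (TRAF3), where CHUK, NFKB2, TNIP1 and TRAF3 are named after their values were seen. CHUK, the kinase IKK-alpha, fell by 0.54 ± 0.07 SE on average (adjusted p = 0.00066), and TRAF3, which restrains the non-canonical pathway, rose by 0.40 ± 0.05 SE (adjusted p = 0.000972). The list holds activators and inhibitors of NF-kB, and both kinds, such as CHUK and TNIP1, were among the 12. Without both control-glucose replicates numbered 3, the counts were 3 lower and 0 higher in control glucose and 8 lower and 2 higher in high glucose. Of all tested genes in that fit, 0.836% were lower and 0.9% higher in control glucose, and 5.44% lower and 6.31% higher in high glucose. With all 11 libraries, 2.96% of all tested genes passed in control glucose and 4.11% in high glucose, in either direction.

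Adhesion molecules and other NF-kB targets showed 4 lower and 1 higher of 17 tested genes (22 listed) averaged over both media, with a median of -0.20 (6 lower and 1 higher without both control-glucose replicates numbered 3). Of all tested genes 6.49% were lower and 7.93% higher on average, and 8.9% and 8.93% without these replicates. VCAM1, to which lymphocytes and monocytes bind, averaged 1.24 ± 0.602 CPM with siGlut1 and 3.7 ± 2.84 with non-silencing siRNA in control glucose (SD, n = 3 each), and 0.604 ± 0.304 (n = 3) against 2.66 ± 0.962 (n = 2) in high glucose. It fell by 1.86 ± 0.42 SE (adjusted p = 0.0145). ICAM1, the ligand of leukocyte integrins, averaged 74.8 ± 26.0 CPM with siGlut1 and 152 ± 58.6 with non-silencing siRNA in control glucose (SD, n = 3 each), and fell by 1.08 ± 0.22 SE on average (adjusted p = 0.00896). TNFAIP8 fell by 0.56 ± 0.10 SE (adjusted p = 0.00349), and was past the threshold in each medium as well, where without both control-glucose replicates numbered 3 the list had 0 genes lower in control glucose and 4 lower and 2 higher in high glucose. IER3, an immediate early gene, fell by 0.41 ± 0.10 SE (adjusted p = 0.0233). In the fit without both control-glucose replicates numbered 3, 0.836% of all tested genes were lower in control glucose. In high glucose 5.44% of them were lower and 6.31% higher in that fit.

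Receptors and their adaptors moved in both directions. Of 32 listed, 24 were tested, and averaged over both media 5 rose and 4 fell (5 and 5 without both control-glucose replicates numbered 3; median -0.09). Of all tested genes 7.93% rose and 6.49% fell on average, and 8.93% and 8.9% without these replicates. CXCR4, the receptor of CXCL12, rose by 0.48 ± 0.06 SE (adjusted p = 0.000968) and TRAF6, the ubiquitin ligase of Toll-like and IL1 receptor signalling, by 0.45 ± 0.07 SE (adjusted p = 0.00146), while IL6R, the receptor of IL6, fell by 0.47 ± 0.12 SE (adjusted p = 0.0235) and IRAK2, a kinase of the same IL1 pathway, by 0.35 ± 0.07 SE (adjusted p = 0.0094). TRAF6 passed in both media and CXCR4 in high glucose, and without both control-glucose replicates numbered 3 there were 0 calls in control glucose and 4 lower and 5 higher in high glucose. Of all tested genes in that fit, 1.74% passed in control glucose, and 5.44% were lower and 6.31% higher in high glucose. With all 11 libraries, 2.96% passed in control glucose and 4.11% in high glucose, in either direction. Of 19 regulators of cytokine transcription and mRNA decay, all tested, 4 fell and 0 rose on average (6 and 0 without both control-glucose replicates numbered 3; median -0.02) and 0 passed in a single medium by edgeR's quasi-likelihood test (4 lower in high glucose without both control-glucose replicates numbered 3). CEBPD, a transcription factor of the acute phase, fell by 1.27 ± 0.34 SE (adjusted p = 0.031), JUND, an AP-1 subunit, by 0.57 ± 0.11 SE (adjusted p = 0.00749), ZC3H12A (regnase-1), a nuclease that degrades IL6 mRNA, by 0.53 ± 0.11 SE (adjusted p = 0.00872), and HNRNPD (AUF1), which binds AU-rich transcripts, by 0.24 ± 0.06 SE (adjusted p = 0.0168).

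**Figure D5:**
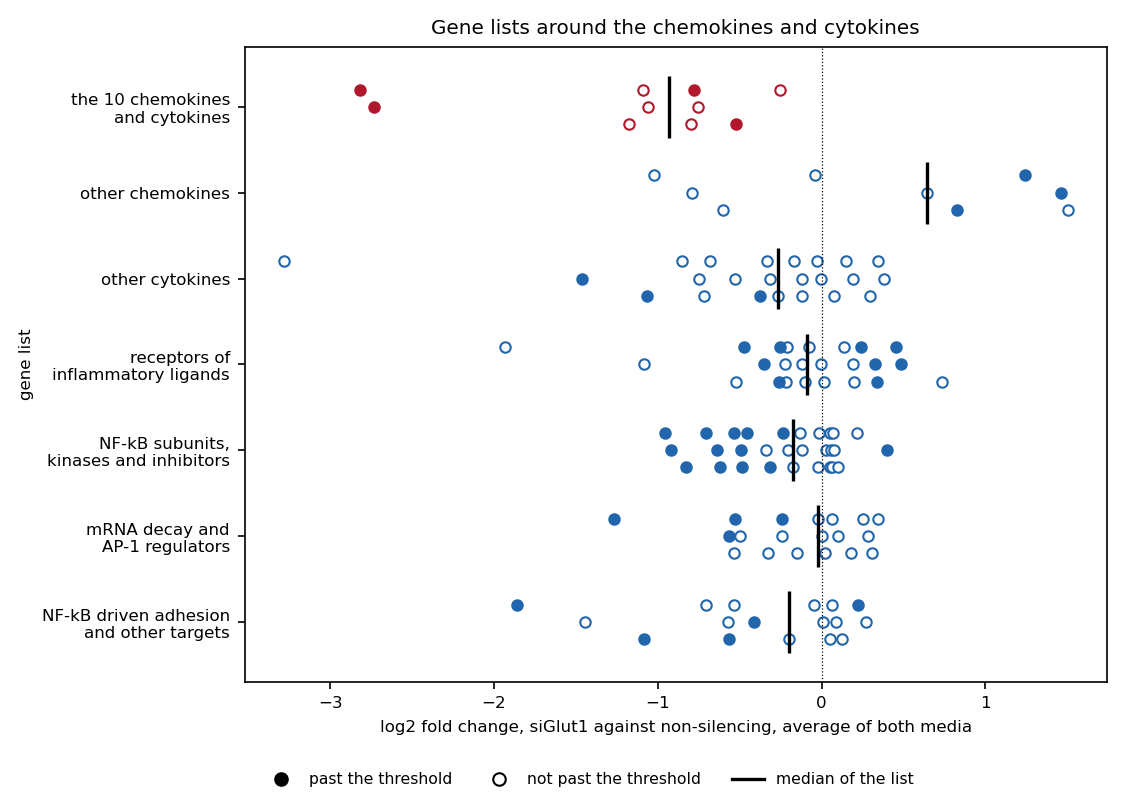
Log2 fold change of siGlut1 against non-silencing siRNA, averaged over both media, for each tested gene of the lists, with filled points past the threshold and a black line at the median of each list. The medians run from -0.93 for the 10 chemokines and cytokines to 0.64 for the other chemokines.

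The genes whose levels most resembled the 10 were sought among 11475 others with a mean of at least 2 CPM, by Pearson's r over the 11 libraries with the mean standardised level of the 10. FAM82B (r = 0.952), LONRF1 (0.952), HIBADH (0.95), SNUPN (0.948) and FRG1 (0.946) came first, and each of them had lower group means with siGlut1 than with non-silencing siRNA in both media. LONRF1 averaged 7.22 ± 0.186 CPM with siGlut1 and 11.4 ± 0.537 with non-silencing siRNA in control glucose (SD, n = 3 each). After the group mean was taken off each library, PCDH18 (0.919), IMMP2L (0.917), ZBTB1 (0.905), IFI16 (0.898) and MED17 (0.895) came first. These lists were the highest of many, so r is a description without a test, and the 2 lists share 0 genes.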

How the data were processed

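RNA was sequenced from 12 labelled samples, and the labels name the TruSeq stranded mRNA and SMARTER kits. Per the submitters' processing notes, the authors used the build hg19 and DESeq2, with no versions given; the sources used here do not name the aligner, the counter, the annotation or the use of strand, nor the kit of each library. The deposited table holds raw counts, whole numbers by gene, per the file headers, and RPKM normalised by the authors to length and depth. RPKM served to rank genes within a group and to check the columns (0 columns had no sample). Y-linked entries and 1 further entry were left out (124 in all). Counts of 11 libraries in 4 groups were fitted in 1 model with edgeR 4.0.16 in R 4.3.3 (filterByExpr with a minimum count of 10, TMM, quasi-likelihood F test, two-sided), on 7 residual degrees of freedom, and checked on simulated data. CPM use TMM-scaled totals, and log2 CPM a prior count of 2. DESeq2 1.42.0, a replicate block, other filters and scalings, and left-out libraries were alternatives. The shares of all genes in refits, and the counts of list genes and of groups that do not overlap without both control-glucose replicates numbered 3 were added after seeing the data. Sequences were read with Python 3.11.15.

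The members and the gene lists were chosen with earlier results of these data known. Named genes are the members, SLC2A1, up to 4 genes per list past the threshold by size of the averaged change, and the 5 nearest in likeness by each measure. CCL20 and CSF2 passed the low-count filter mostly through non-silencing libraries. Intervals on summed reads cover counting error only. 1 gene of the list of adhesion molecules and other NF-kB targets is counted but not reported here by name.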

Additional observations from a re-analysis of the deposited data

How the results depend on the processing

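Leaving out each of the 11 libraries in turn, the members past the threshold for siGlut1 were 0 to 1 in control glucose, 0 to 2 in high glucose and 1 to 7 on average, and 0 in each run for glucose and the interaction; all genes past it were 135 to 342, 6 to 1079 and 1001 to 2500 for siGlut1, and 0 to 2 (non-silencing), 0 to 17 (siGlut1) and 0 to 850 (averaged) for glucose. The members' median was -1.27 to -0.67 in control glucose, -1.48 to -0.72 in high glucose, -1.31 to -0.83 on average, and -0.46 to 0.0636 for glucose with siGlut1. The fits with 12 columns given next put back the non-silencing high-glucose column left out of the main fit. Its values are averages of libraries already in that group, so it adds no measurement and narrows the scatter by construction. The higher counts with 12 columns are therefore no evidence for further changes. Members past the threshold for siGlut1 in control glucose were 3 with DESeq2, 2 with all 12 columns, and 0 with at least 1 CPM in 6 libraries, without both control-glucose replicates numbered 3 and in a fit of the 2 groups compared; all genes were 1049 with DESeq2, 825 with 12 columns, 247 without the replicates numbered 3 and 70 with 2 groups. In high glucose, members were 1 with DESeq2, 2 with 12 columns, 3 without the replicates numbered 3 and 3 with 2 groups, all genes 1319, 1807, 1672 and 1157, and the median of the 7 members left by the 1 CPM filter was -0.66. For the averaged siGlut1 effect, members were 2 with the 1 CPM filter, which drops CCL20, CSF2 and CX3CL1, 8 with 12 columns and 8 without the replicates numbered 3, and all genes 3184 with 12 columns. For glucose with non-silencing siRNA, all genes were 33 with DESeq2, 11 with 12 columns and 48 without the replicates numbered 3; with siGlut1, 432, 37 and 734, and 0 with 2 groups; averaged, 541, 428 and 2580, with 1 member in 12 columns and 3 without the replicates numbered 3. DESeq2 size factors, halved counts and no filter on low counts moved none of these counts by over 1.5 times. Without the filter, CXCL2 (adjusted p = 0.0467) and CXCL3 (0.0385) also passed for the averaged siGlut1 effect by edgeR's quasi-likelihood test. DESeq2 called 5 members there, against 19.7% of all genes with an adjusted p, 9.39% lower.

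The replicate numbers do not pair the libraries over all 4 groups (15 same-numbered pairs, r of -0.25 to 0.535, 9 over 0.1, and not every library correlated best with its own number). Between the siRNAs in control glucose, the same-numbered pairs had r of 0.093 (replicate 1), 0.353 (2) and 0.535 (3). For CCL2, CXCL2, CXCL3, IL8 and IL6, each siGlut1 library there was below the non-silencing library of its number. For CX3CL1 this did not hold in replicate 1. With the number as a replicate block, members past the threshold were 3 in control glucose, 3 in high glucose and 7 on average. By edgeR's quasi-likelihood test, the average then called CCL2 (-1.33, adjusted p = 0.00483), CXCL2 (-1.26, 0.0052) and CXCL3 (-1.25, 0.00582) beside CCL20, CXCL1, CXCL6 and CSF2. The share of all tested genes under the block is not given here, so these counts have no background. Signs turned as follows, for results that did not pass the threshold, and the cause was not tested. With the block, CX3CL1 gave -0.0244 for siGlut1 in control glucose (-0.0241 with DESeq2), glucose with non-silencing siRNA gave 0.26 for CCL2, 0.23 for CCL20, 0.31 for CX3CL1 and 0.13 for CXCL2, and averaged glucose gave 0.0085 for CCL2. Without both control-glucose replicates numbered 3, glucose with non-silencing siRNA gave 0.48 for CCL20, 0.0327 for CXCL1, 0.43 for CXCL6 and 0.0410 for IL6, glucose gave 0.00996 for IL6 with siGlut1 and 0.0255 on average, and the interaction gave -0.0834 for CXCL1 and -0.0123 for CXCL6.

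With each library left out, these results took both signs. For glucose with non-silencing siRNA the ranges were -0.63 to 0.36 for CCL2, -0.47 to 0.48 for CCL20, -1.22 to 0.70 for CX3CL1, -0.29 to 0.0354 for CXCL1, -0.65 to 0.21 for CXCL2, -0.23 to 0.43 for CXCL6, -0.22 to 0.0443 for IL6 and -0.10 to 0.55 for IL8. With siGlut1 they were -0.99 to 0.0897 for CCL2, -0.19 to 0.0487 for CXCL1, -1.06 to 0.0467 for CXCL2, -0.75 to 0.29 for CXCL3, -0.29 to 0.0051 for IL6 and -0.0309 to 0.71 for IL8. For the interaction they were -0.89 to 0.19 for CCL2, -0.12 to 0.21 for CXCL1, -0.89 to 0.36 for CXCL2, -0.16 to 0.90 for CXCL3, -0.10 to 0.56 for CXCL6, -0.19 to 0.13 for IL6 and -0.26 to 0.63 for IL8, and for siGlut1 in control glucose -0.76 to 0.91 for CX3CL1. Depth limits CCL20, CSF2 and CX3CL1, which had 0 to 40 read pairs per library.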
